A study of Mus musculus with 15 samples.

Results

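Lesional skin of mice given the topical agent GZ21T was compared with non-lesional skin of mice given placebo cream, a comparison that joins 6 of the 15 libraries of the series. The groups were chosen by their labels alone, 3 libraries of GZ21T lesional skin and 3 of placebo non-lesional skin. The RNA came from skin of female mice of the hairless strain SKH1, 6 to 8 weeks old when irradiated per the labels, in which ultraviolet light readily causes skin tumours. Ultraviolet B at 500 J/m2 was given to both groups 5 days a week over 10 weeks, a course that produces actinic keratoses. Each also had 0.25 g of cream 5 days a week, which held GZ21T in one arm and was a placebo in the other. Treatment and site therefore differ together here: no library of GZ21T non-lesional skin enters, and what the cream does to non-lesional skin cannot be told apart from what is left of the lesion. The other groups used for orientation are 3 libraries each of placebo lesional skin and of placebo skin that was not exposed to ultraviolet light. The labels number the libraries of a group 1 to 3, and whether each number is its own mouse is not stated. The placebo sites carry the same control numbers, so placebo lesional, non-lesional and non-UV skin may come from the same mice. The tables do not allow that pairing to be used, and it does not extend to the GZ21T libraries, which are another arm. The p-values therefore reflect only how libraries vary, and some of that variation may be technical. Their standard errors come from the deposited fit, assumed to cover all 15 libraries, so the spread is not that of these 6 alone.

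Actinic keratoses are patches of dysplastic keratinocytes that can progress to squamous cell carcinoma. In healthy epidermis, basal keratinocytes divide, move outward, switch from basal to suprabasal keratins, and finally crosslink loricrin, small proline-rich and late cornified envelope proteins into the barrier. Wounded or dysplastic epidermis instead makes stress keratins, alarmins and matrix proteases. Irradiated skin without a visible lesion has had the same exposure as the lesion, so it serves as the reference for what is particular to a lesion.

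No gene passed the test between GZ21T lesions and placebo non-lesional skin. In the Wald test with Benjamini-Hochberg adjustment 0 of 15187 genes had an adjusted p under 0.05, which is 0%, and the smallest adjusted p was 0.161. At an unadjusted p under 0.05 there were 503 genes, or 3.31% of those tested. Of these, 253 were higher in GZ21T lesions (1.67%) and 250 lower (1.65%). Where no gene changes and the SEs are right, a share of 0.05 falls under that p, so 3.31% is not an excess. The unadjusted p and the counts of list members below are to be read beside these shares. All changes below are log2 differences between group means, written with their standard error (SE). They come from 3 of the authors' deposited tables, in which every row is a contrast of group means. Library depth is therefore unknown, and single libraries cannot be shown. For a gene alone to pass, its change had to reach 4.65 SEs, which is 1.60 on the log2 scale at the median SE of 0.34. For 8376 genes (55.2%) the 95% interval lay within 1 log2 unit of 0 on both sides, so a difference of that size was outside their own interval, with no allowance for the number of genes. For the remaining genes a difference of that size was not detectable or not excluded at this precision.

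The same genes were set beside 2 related differences that share libraries with this one. Placebo lesions over placebo non-lesional skin share the non-lesional libraries. That difference can be given as a value only, since the deposited tables do not yield its error. GZ21T over placebo lesions shares the GZ21T libraries. It tests whether the 2 kinds of lesion differ in their signed change over non-lesional skin, because the non-lesional term cancels. It does not test which of them lies farther from that skin. The median absolute log2 change was 0.209 for GZ21T lesions over non-lesional skin, 0.372 for placebo lesions over non-lesional skin, and 0.36 for GZ21T over placebo lesions. At least 1 log2 unit of difference was reached by 1278 genes (8.42%) in the first, 2273 in the second and 1811 in the third. In the authors' deposited table of GZ21T and placebo lesions, 393 of 10899 genes had an adjusted p under 0.05, 143 higher under GZ21T (1.31%) and 250 lower (2.29%). With changes centred on their median the split in that table turned to 201 higher and 142 lower, and with a null spread taken from the genes themselves no gene passed there, so its calls are read below with that limit.

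**Figure D1:**
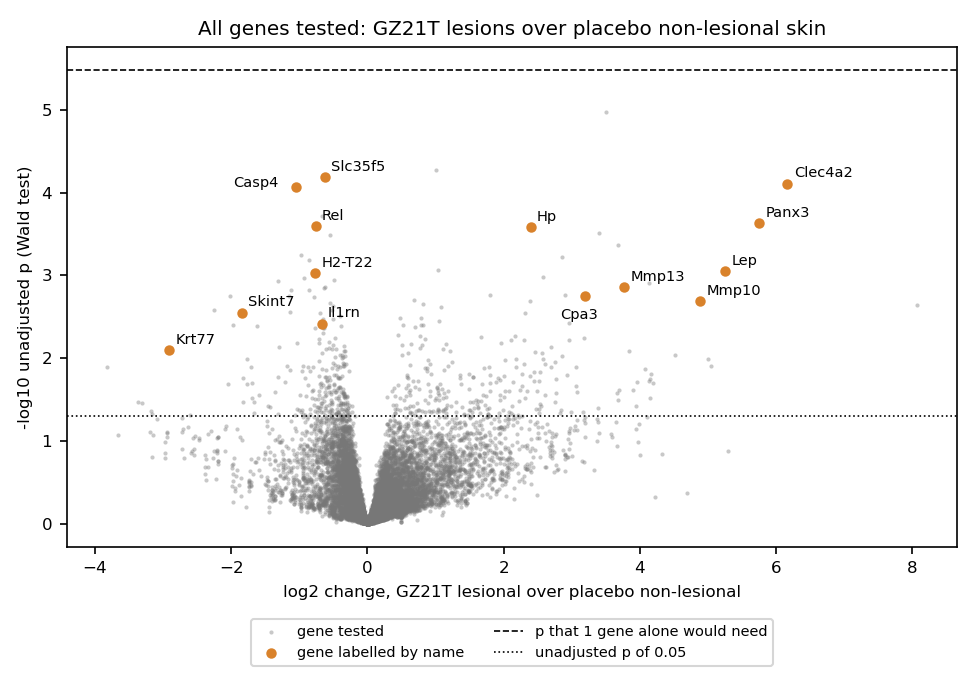
Each point is 1 of the 15187 genes tested, with its log2 change in GZ21T lesional over placebo non-lesional skin (horizontal) and the -log10 of its unadjusted Wald p (vertical). The dotted line is an unadjusted p of 0.05, the dashed line the p that 1 gene alone would need, 3.29e-06, and no point reaches it.

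The late cornified envelope genes of the Lce1 group were close to non-lesional skin in GZ21T lesions, while their values in placebo lesions were negative against the same reference. The reference was itself above unexposed skin for Lce1h, by 1.55. These genes encode small cysteine-rich proteins that are crosslinked into the cornified envelope at the last step of keratinocyte differentiation, and they lie together on chromosome 3. The 100 bases before the start of 3 of them are shown because the members move as a block and the promoters of these 3 are close copies. The sequences are from RefSeq on GRCm38.p6, in the direction of transcription, with capitals at the positions where all 3 agree.
Lce1h, chr3:92765066-92765165, minus strand: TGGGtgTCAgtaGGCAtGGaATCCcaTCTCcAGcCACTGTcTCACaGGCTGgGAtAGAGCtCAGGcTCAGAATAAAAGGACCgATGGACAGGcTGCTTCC
Lce1g, chr3:92752339-92752438, minus strand: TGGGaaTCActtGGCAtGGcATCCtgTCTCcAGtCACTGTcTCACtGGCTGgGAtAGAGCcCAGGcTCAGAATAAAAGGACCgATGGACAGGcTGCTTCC
Lce1c, chr3:92679147-92679246, plus strand: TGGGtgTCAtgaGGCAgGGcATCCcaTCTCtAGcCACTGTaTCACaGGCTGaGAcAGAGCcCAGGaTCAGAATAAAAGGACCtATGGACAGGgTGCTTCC
Over these 100 bases Lce1h and Lce1g have 90 identical, Lce1h and Lce1c 88, and Lce1g and Lce1c 83. These bases lie before the start, and the likeness of the transcripts was not measured. If the transcripts are also alike, reads can be shared, and a single member is then less certain than the group.

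Lce1h had a log2 change of -0.02 ± 0.33 in GZ21T lesions over non-lesional skin, with a 95% interval from -0.66 to 0.63. In placebo lesions over the same non-lesional skin its change was -1.60. By the authors' deposited table, turned in sign, it was 1.58 ± 0.33 higher in GZ21T than in placebo lesions (adjusted p = 0.0027). The value in placebo lesions lies outside the interval found for GZ21T lesions. In the authors' deposited table Lce1h was 1.55 ± 0.34 higher in placebo non-lesional than in non-UV skin (adjusted p = 0.0011). In placebo lesional over non-UV skin the authors' deposited table has it at -0.04 (adjusted p = 0.951), so against unexposed skin no loss in placebo lesions was called. GZ21T lesional over non-UV skin stood at 1.54 for this gene. Over the Lce1 genes the value in non-lesional over non-UV skin was 0.86 to 1.64, apart from Lce1m at -0.64. Lce1g stood at 0.03 ± 0.32 and Lce1c at -0.17 ± 0.37 in GZ21T lesions over non-lesional skin, against -1.34 and -1.82 in placebo lesions. They were higher in GZ21T than in placebo lesions by 1.38 and 1.65 in the authors' deposited table (adjusted p = 0.00736 and 0.00574). Over all 14 Lce1 genes tested, the change in GZ21T lesions ranged from -0.59 to 0.56, that in placebo lesions from -2.09 to -0.86, and the 2 ranges do not overlap. Of these 14 genes 9 had an interval within 1 log2 unit of 0, beside 55.2% of all genes tested. GZ21T lesions were higher than placebo lesions in 11 of the 14 and lower in 0 by the authors' deposited table. Over all genes there, 1.31% were higher and 2.29% lower. The differences were 1.34 to 1.83 over the 14. The remaining 3, Lce1k, Lce1l and Lce1m, had adjusted p of 0.169, 0.076 and 0.129 in the authors' deposited table. The Lce1 genes are neighbours of the same group and may share reads, so they do not amount to 14 separate measurements.

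The Lce3 genes, which belong to the same cluster and are known from skin repair and psoriasis, did not share this pattern. The 5 tested stood between 1.26 and 2.62 in GZ21T lesions over non-lesional skin and between 3.06 and 4.18 in placebo lesions. Lce3f, at 2.53 with an interval from 0.17 to 4.88, was the member whose interval left out 0, and it did not pass adjustment. Their SEs, from 1.18 to 2.08, are several times those of most Lce1 genes. None of the 5 has an adjusted p for GZ21T against placebo lesions in the authors' deposited table, so the difference between the 2 kinds of lesion was not tested for them. Lce6a, the last member tested, stood at -0.66 ± 0.47 in GZ21T lesions and -1.83 in placebo lesions, and the authors' deposited table gives an adjusted p of 0.124 between the lesions.

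**Figure D2:**
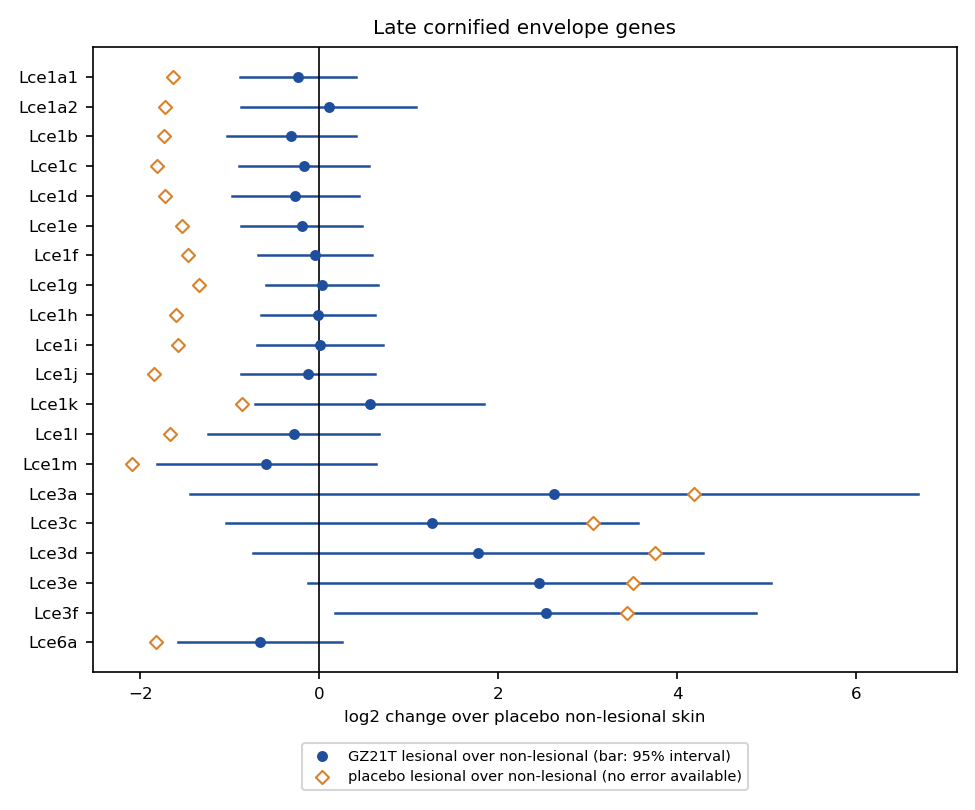
Log2 change over placebo non-lesional skin (horizontal) of the 20 late cornified envelope genes tested, for GZ21T lesions (filled points, bars are 95% intervals) and placebo lesions (open diamonds, no error available). The Lce1 points of GZ21T lesions lie between -0.59 and 0.56 while the Lce1 diamonds lie between -2.09 and -0.86; for Lce3 genes both lie above 0.

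Among 29 cornified envelope and filaggrin genes the median change in GZ21T lesions over non-lesional skin was -0.05, and 1 was higher and 0 lower at an unadjusted p under 0.05. The median of all genes tested was 0.02, with 1.67% higher and 1.65% lower at that p. The higher member was Tchhl1, a trichohyalin-like protein, at 2.30 ± 0.91, against -0.23 in placebo lesions. The list's median in placebo lesions was -0.52. Of its 27 members with an adjusted p in the authors' deposited table, 6 were higher in GZ21T than in placebo lesions and 0 lower. Over all genes there, the shares were 1.31% and 2.29%. Repetin, Rptn, a filaggrin-type protein of cornified cells, stood at 0.35 ± 0.44 in GZ21T lesions and at -0.82 in placebo lesions. Krt1, the first keratin made on leaving the basal layer, stood at 0.16 ± 0.38, against -1.27 in placebo lesions. The authors' deposited table puts Krt1 1.42 ± 0.38 higher in GZ21T than in placebo lesions (adjusted p = 0.0195). Its partner Krt10 stood at -0.11 ± 0.57 and -1.38 in the same pair of comparisons, and the difference between the lesions did not pass for it (adjusted p = 0.152 in the authors' deposited table).

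Krt77, another suprabasal keratin, was the member of the suprabasal list that lay lowest, at -2.91 ± 1.10 in GZ21T lesions (unadjusted p = 0.008) and at -4.42 in placebo lesions. Its interval, from -5.06 to -0.76, leaves out 0, but it does not pass adjustment. Dsc2, a desmosomal cadherin, stood at 1.37 ± 0.57 over non-lesional skin, against 3.45 in placebo lesions. The authors' deposited table gives Dsc2 as 2.08 ± 0.55 lower in GZ21T than in placebo lesions (adjusted p = 0.018). Basal markers were close to 0: Krt5 had a change of 0.04 ± 0.36. Krt14 had one of 0.35 ± 0.35, and Trp63, the transcription factor of basal cells, one of -0.39 ± 0.22. Of the 21 basal keratinocyte and hemidesmosome genes 12 had an interval within 1 log2 unit of 0, beside 55.2% of all genes tested. Between the lesions, 0 of 21 differed in the authors' deposited table, where 1.31% of all genes were higher and 2.29% lower. The keratinocyte markers Krt5, Krt14, Krt1 and Krt10 were all among the genes tested, but the tables give no levels.

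Stress keratins of wounded epidermis had positive values in both kinds of lesion, over a reference that was itself raised. In placebo non-lesional over non-UV skin the authors' deposited table has Krt6a higher by 2.69 (adjusted p = 5.77e-05), Krt6b by 5.10 (adjusted p = 8.6e-08) and Krt16 by 3.70 (adjusted p = 1.32e-12). Krt6a stood at 1.03 ± 0.51 in GZ21T lesions over non-lesional skin (unadjusted p = 0.0416), against 1.81 in placebo lesions. Krt6b stood at 1.01 ± 0.78 against 1.49, and Krt16 at 0.48 ± 0.45 against 0.45. Krt17, also a stress keratin, stood at 0.62 ± 0.28 (unadjusted p = 0.0253) against 0.91. For Krt6a, Krt6b and Krt16 the authors' deposited table gives adjusted p of 0.353, 0.766 and 0.981 between the 2 kinds of lesion, which does not show that they are alike. In the list of 27 stress keratins and alarmins, an unadjusted p under 0.05 was reached by 3 on the higher side and 0 on the lower. Over all genes the shares were 1.67% and 1.65%. The list's median was 0.28 in GZ21T and 1.49 in placebo lesions. The 12 small proline-rich genes had a median of 0.86 in GZ21T lesions and 2.09 in placebo lesions. Among them Sprr1a stood at 1.23 ± 0.59 (unadjusted p = 0.0375). Sprr2a1 and Sprr2a2 carry the same values and count as 1 measurement.

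Skint genes encode butyrophilin-like proteins of keratinocytes, some of which select and sustain epidermal gamma-delta T cells in mice. Of 11 Skint genes 10 were below 0 in GZ21T lesions, with a median of -0.34, against a median of -1.37 in placebo lesions. The median of all genes tested was 0.02 in GZ21T lesions. Skint7 lay lowest, at -1.84 ± 0.62 (unadjusted p = 0.0028, adjusted p = 0.902), against -3.06 in placebo lesions. Skint3 stood at -0.40 ± 0.32, and the authors' deposited table gives it as 1.06 ± 0.32 higher in GZ21T than in placebo lesions (adjusted p = 0.041).

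Epithelial signals that stood high in placebo lesions were nearer to non-lesional skin under GZ21T, with wide intervals. Tslp, an epithelial cytokine of type 2 inflammation, had a change of 0.74 ± 0.91 in GZ21T lesions and 4.69 in placebo lesions over non-lesional skin. It was 3.95 ± 0.89 lower in GZ21T than in placebo lesions in the authors' deposited table (adjusted p = 0.0055). Its interval over non-lesional skin reaches from -1.05 to 2.52, so a several-fold excess in GZ21T lesions is not excluded. Ptgs2, the inducible cyclooxygenase of prostaglandin synthesis, stood at 1.86 ± 1.02 against 5.39, and was 3.53 ± 1.0 lower in GZ21T than in placebo lesions in the authors' deposited table (adjusted p = 0.0286). Slit1, a secreted guidance ligand of Robo receptors, stood at -0.13 ± 0.78 against 3.38, a difference between lesions of -3.52 ± 0.77 in the authors' deposited table (adjusted p = 0.0036). Fosl1, an AP-1 subunit, stood at 0.81 ± 0.77 against 3.27, and was 2.46 ± 0.75 lower in GZ21T than in placebo lesions in the authors' deposited table (adjusted p = 0.0409). Of these genes Ptgs2 keeps the highest value over non-lesional skin and Slit1 the lowest.

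Epgn, which encodes the EGF receptor ligand epigen, lay on the other side of non-lesional skin in the 2 kinds of lesion. Its change was -0.95 ± 0.48 in GZ21T lesions (unadjusted p = 0.0475, not passing adjustment) and 1.42 in placebo lesions. The authors' deposited table gives it as 2.37 ± 0.48 lower in GZ21T than in placebo lesions (adjusted p = 0.0014). The receptor gene Egfr stood at -0.27 ± 0.17. Over the 17 genes of this receptor family and its ligands the median was -0.21, with 0 higher and 1 lower at an unadjusted p under 0.05. All genes tested had a median of 0.02, with 1.67% higher and 1.65% lower at that p. The alarmin Il33 stood at 0.29 ± 0.50 against 1.56 in placebo lesions, with an adjusted p of 0.105 between lesions in the authors' deposited table. Il1rn, the interleukin-1 receptor antagonist, stood at -0.67 ± 0.23 in GZ21T lesions (unadjusted p = 0.0038) and at -0.66 in placebo lesions.

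Most of the genes named here for the response to low oxygen were nearer to non-lesional skin in GZ21T lesions as well. Egln3, an oxygen-sensing prolyl hydroxylase, had a change of -0.34 ± 0.40 (interval -1.12 to 0.45) against 1.83 in placebo lesions. In the authors' deposited table it was 2.17 ± 0.40 lower in GZ21T than in placebo lesions (adjusted p = 0.00064). Ndrg1, a hypoxia-induced gene, stood at 0.73 ± 0.55 against 2.69, with 1.96 ± 0.55 between the lesions, lower under GZ21T (adjusted p = 0.026 in the authors' deposited table). Vegfa, the growth factor of vessels, stood at 0.66 ± 0.38 against 1.18, and Slc2a1, a glucose transporter, at 0.55 ± 0.38 against 1.23. Egln1 was not nearer: it stood at -0.42 ± 0.26 in GZ21T lesions and at 0.39 in placebo lesions. Over 35 glycolysis and hypoxia genes the median was 0.28 in GZ21T lesions, 1.17 in placebo lesions, and 0 members were higher or lower at an unadjusted p under 0.05. Between the lesions, 5 of 31 members were lower under GZ21T and 0 higher in the authors' deposited table. Over all genes there, 2.29% were lower and 1.31% higher.

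**Figure D3:**
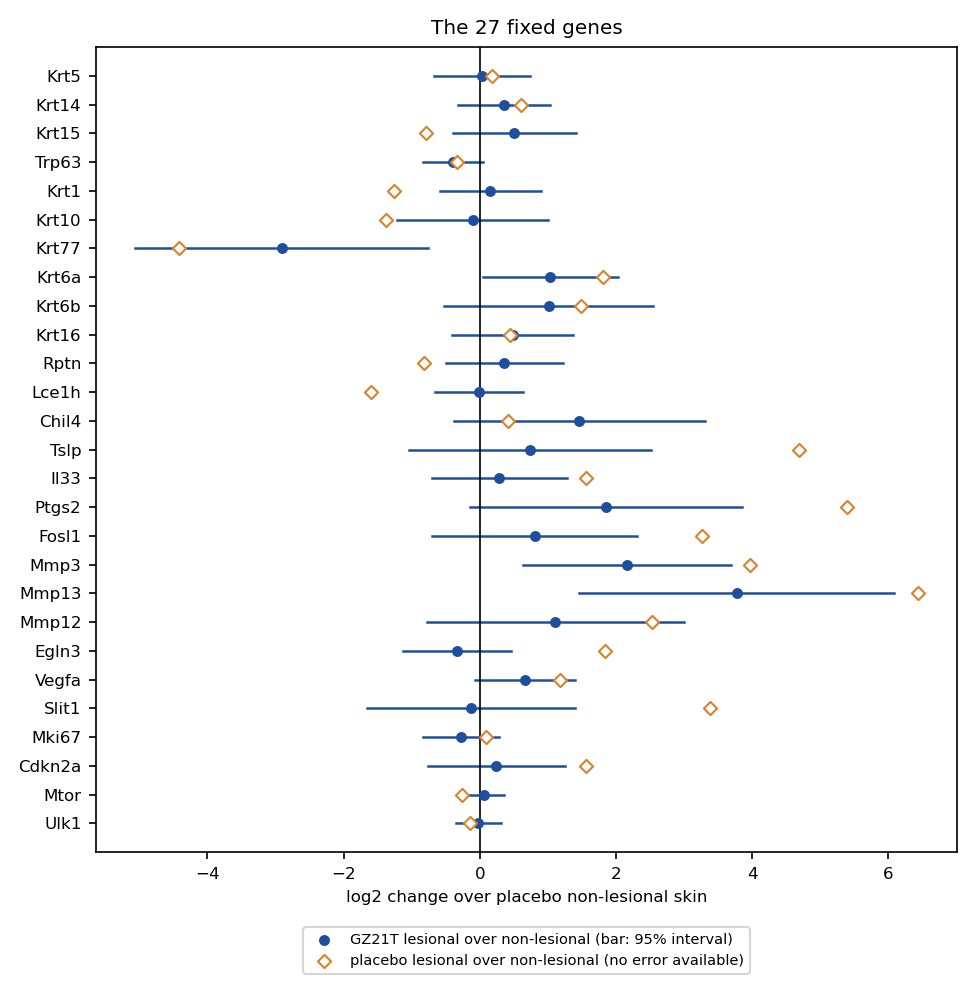
Log2 change over placebo non-lesional skin (horizontal) of the 27 fixed genes in GZ21T lesions (filled points, bars are 95% intervals) and placebo lesions (open diamonds, no error available). The diamond lies outside the bar for Krt15, Krt1, Krt10, Rptn, Lce1h, Tslp, Il33, Ptgs2, Fosl1, Mmp3, Mmp13, Egln3, Slit1, Cdkn2a and Mtor. Of these, Krt15, Krt10, Rptn, Il33, Mmp3, Mmp13, Cdkn2a and Mtor did not pass between the lesions in the authors' deposited table. For Krt16 and Krt5 point and diamond nearly coincide.

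Growth genes lay at or slightly below non-lesional skin in GZ21T lesions. Of the 38 mitosis and cell cycle genes 33 were below 0 and 5 above, with a median of -0.32, beside 0.02 over all genes. At an unadjusted p under 0.05, 0 were higher and 2 lower, beside 1.67% and 1.65% of all genes. These 2 were Kif23, a kinesin of cytokinesis, at -0.71 ± 0.29 and the transcription factor E2f1 at -0.73 ± 0.35. The list's median in placebo lesions was 0.59. Mki67, the proliferation marker, stood at -0.27 ± 0.29, against 0.10 in placebo lesions. The 37 DNA replication genes had a median of -0.11 in GZ21T lesions and 0.76 in placebo lesions. Between the lesions, 4 of 36 cell cycle genes and 2 of 32 replication genes were lower under GZ21T in the authors' deposited table. In it 0 of either list were higher, and over all genes 2.29% were lower and 1.31% higher. Cdkn2a, the locus of the p16 and Arf inhibitors, stood at 0.24 ± 0.51 against 1.56 in placebo lesions, with an adjusted p of 0.0933 between lesions in the authors' deposited table.

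Ribosomal protein genes were measured precisely. Their median SE was 0.23, and 52 of 54 had an interval within 1 log2 unit of 0, beside 55.2% of all genes tested. Their median was 0.01 in GZ21T lesions and 0.62 in placebo lesions over non-lesional skin. Between the lesions, 6 of 53 were lower under GZ21T and 0 higher in the authors' deposited table. Over all genes there, 2.29% were lower and 1.31% higher. Genes of oxidative phosphorylation had a median of 0.15 in GZ21T lesions and 0.57 in placebo lesions, and 0 of 34 differed between the lesions in the authors' deposited table.

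Matrix proteases and their regulators stood above non-lesional skin in many members, though none passed adjustment. Of 25 genes 8 were higher and 0 lower at an unadjusted p under 0.05, beside 1.67% and 1.65% of all genes, and the median was 1.11, beside 0.02. The list's median in placebo lesions was 2.12. The promoters of the 3 secreted proteases with the smallest p, neighbours on chromosome 9, are shown because each holds the letters TGANTCA, the core bound by AP-1 factors such as Fosl1, close to its start. The 100 bases before the start are from RefSeq on GRCm38.p6, plus strand, with the match in capitals.
Mmp13, chr9:7272414-7272513: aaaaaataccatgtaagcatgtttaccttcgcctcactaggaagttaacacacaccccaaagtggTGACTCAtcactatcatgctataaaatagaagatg
Mmp10, chr9:7502242-7502341: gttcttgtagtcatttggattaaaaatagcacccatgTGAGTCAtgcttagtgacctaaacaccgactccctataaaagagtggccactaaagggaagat
Mmp3, chr9:7445722-7445821: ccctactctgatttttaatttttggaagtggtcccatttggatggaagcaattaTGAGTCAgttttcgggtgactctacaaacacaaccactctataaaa
The match begins 35 bases before the start in Mmp13, 63 in Mmp10 and 46 in Mmp3. The motif reads the same on both strands and was searched in the whole promoter window of the table around each start. Of 32851 windows 7.81% hold it, and of the 15 list members with a window 6 do. A match is a description of the letters and not evidence of binding.

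Mmp13, a collagenase, had a change of 3.77 ± 1.18 in GZ21T lesions over non-lesional skin (unadjusted p = 0.0014, adjusted p = 0.805), against 6.43 in placebo lesions. Mmp10, a stromelysin, had one of 4.89 ± 1.58 (unadjusted p = 0.002, adjusted p = 0.841), against 6.62. Mmp3, the other stromelysin, stood at 2.16 ± 0.78 (unadjusted p = 0.0054), against 3.96. The intervals of these proteases leave out 0, and all 3 were lower in GZ21T than in placebo lesions without passing the test (adjusted p = 0.144, 0.509 and 0.128 in the authors' deposited table). Of the list 1 of 20 members was called lower in GZ21T lesions in the authors' deposited table and 0 higher. Over all genes there, 2.29% were lower and 1.31% higher. Mmp12, the macrophage elastase, stood at 1.11 ± 0.96 against 2.53. In placebo non-lesional over non-UV skin the authors' deposited table has Mmp13 at -1.87, Mmp10 at -2.65 and Mmp3 at -1.84, and none passed there (adjusted p = 0.677, 0.638 and 0.316).

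Fibroblast and collagen genes were mostly above non-lesional skin, with wide intervals. Inhba, the activin A subunit, stood at 2.96 ± 1.02 (unadjusted p = 0.0037) against 4.18, and Acta2, smooth muscle actin of myofibroblasts and vessels, at 1.42 ± 0.72 against 3.09. Of the 39 fibroblast and collagen genes 35 were above 0 in GZ21T lesions, with a median of 0.82, beside 0.02 over all genes. At an unadjusted p under 0.05, 4 were higher and 1 lower, beside 1.67% and 1.65% of all genes.

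Mast cell genes had positive values over non-lesional skin in both kinds of lesion. Mcpt4, a mast cell chymase, had a change of 2.90 ± 0.92 (unadjusted p = 0.0017, adjusted p = 0.805) against 2.11 in placebo lesions. Cpa3, mast cell carboxypeptidase, stood at 3.19 ± 1.02 (unadjusted p = 0.0018, adjusted p = 0.805) against 2.43. The chymase Cma1 stood at 2.86 ± 1.10 against 2.24 and the tryptase Tpsb2 at 2.53 ± 1.04 against 2.55. Of the 9 mast cell and eosinophil genes tested 6 were higher and 0 lower at an unadjusted p under 0.05. Among all genes these shares were 1.67% and 1.65%. The list's median was 2.86, beside 2.43 in placebo lesions, and its median for GZ21T over placebo lesions was -0.01. Only Mcpt4 of this list has an adjusted p between the lesions in the authors' deposited table (0.64). In bulk skin more cells of a type and more RNA per cell cannot be told apart. The same genes had a median of -1.33 in placebo non-lesional over non-UV skin and of 1.14 in GZ21T lesional over non-UV skin, which leaves the non-lesional libraries out. In the first of these Mcpt4, Cpa3, Cma1 and Tpsb2 did not pass (adjusted p = 0.738, 0.653, 0.695 and 0.916 in the authors' deposited table).

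**Figure D4:**
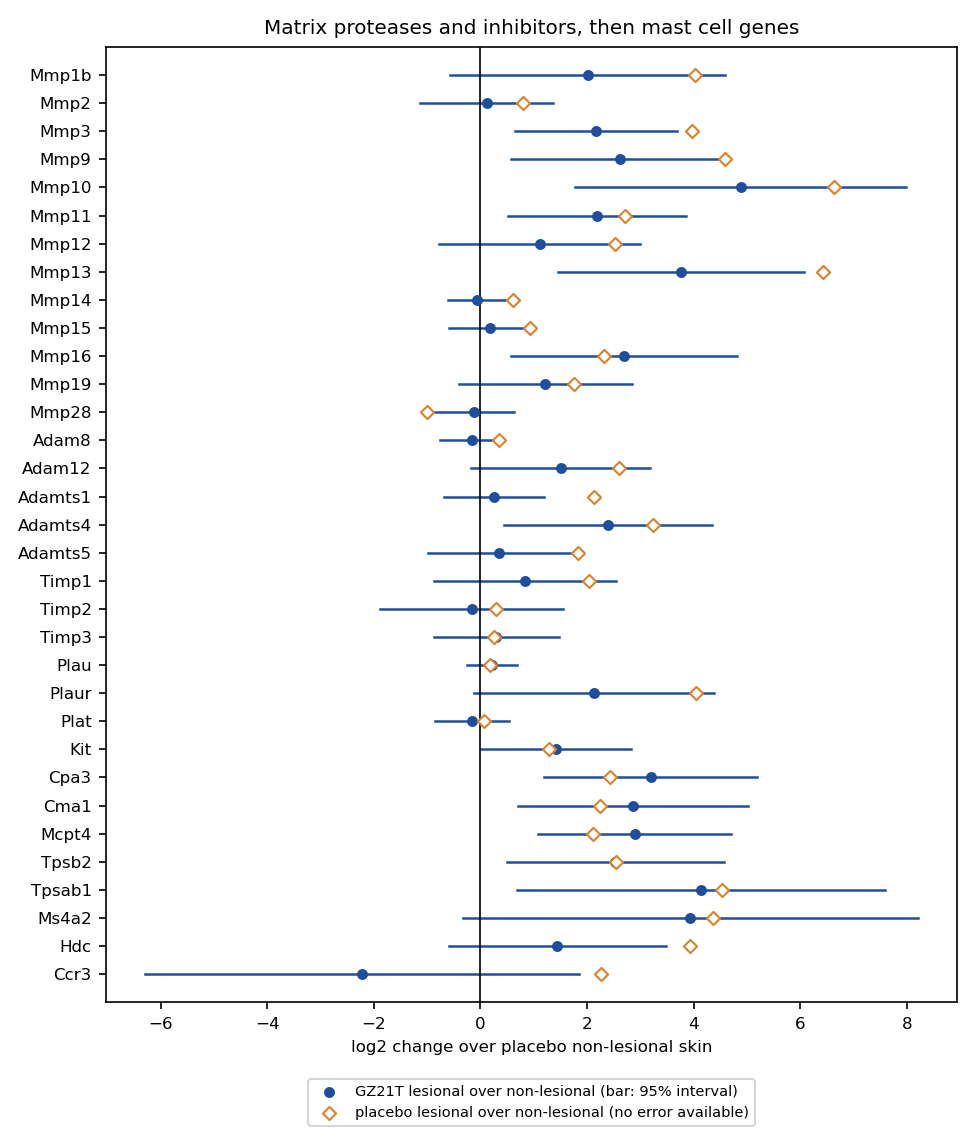
Log2 change over placebo non-lesional skin (horizontal) of matrix protease and inhibitor genes and, from Kit downward, 9 mast cell and eosinophil genes, in GZ21T lesions (filled points, bars are 95% intervals) and placebo lesions (open diamonds, no error available). Mmp13 and Mmp10 lie at 3.77 and 4.89 in GZ21T lesions. The GZ21T point lies to the right of the diamond for Kit, Mcpt4, Cpa3 and Cma1. It lies to the left for Tpsb2, Tpsab1, Ms4a2, Hdc and Ccr3.

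Macrophage genes were above 0 in GZ21T lesions for 29 of 29 members, with a median of 1.11, beside 1.14 in placebo lesions. The median of all genes tested was 0.02 in GZ21T lesions. At an unadjusted p under 0.05, 8 macrophage genes were higher and 0 lower, beside 1.67% and 1.65% of all genes. The complement genes C1qc and C1qa, made by tissue macrophages, stood at 2.10 ± 0.77 (unadjusted p = 0.006) and 1.71 ± 0.69 (unadjusted p = 0.0131). The scavenger receptor Msr1 stood at 2.57 ± 0.98 and the mannose receptor Mrc1 at 2.19 ± 0.88. The same list had a median of -1.27 in placebo non-lesional over non-UV skin and of -0.13 in GZ21T lesional over non-UV skin. In non-lesional over non-UV skin C1qc, C1qa, Msr1 and Mrc1 did not pass (adjusted p = 0.839, 0.922, 0.0667 and 0.928 in the authors' deposited table). Between the 2 kinds of lesion 0 of 22 differed in the authors' deposited table, where 1.31% of all genes were higher and 2.29% lower.

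Of 17 adipocyte genes 16 were above 0 in GZ21T lesions over non-lesional skin, with a median of 0.87, beside 0.02 over all genes. At an unadjusted p under 0.05, 4 were higher, beside 1.67% of all genes. The hormone leptin, Lep, stood at 5.26 ± 1.58 (unadjusted p = 0.00089, adjusted p = 0.789), against 1.39 in placebo lesions, and adiponectin, Adipoq, at 1.99 ± 0.98 against -0.09. Set against non-UV skin, placebo non-lesional skin had a list median of -1.18. Lep stood there at -4.40 and Adipoq at -1.57, and neither passed (adjusted p = 0.182 and 0.666 in the authors' deposited table). In GZ21T lesional over non-UV skin the list median was 0.15, with Lep at 0.86 and Adipoq at 0.42. Between the lesions, 0 of 11 differed in the authors' deposited table, where 1.31% of all genes were higher and 2.29% lower. Hair genes had a median of 0.82 in GZ21T lesions, -0.59 in placebo lesions and -1.72 in non-lesional over non-UV skin, with a median SE of 1.31. Their median in GZ21T lesional over non-UV skin was -0.98. Skeletal muscle genes had a median of 0.33 with a median SE of 1.53, and 0 of 27 were higher or lower at an unadjusted p under 0.05. How the amount of fat, hair or muscle in the samples enters the other results was not tested.

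Blood genes set placebo lesions apart. The haemoglobin genes Hba-a1 and Hbb-b1 stood at -0.26 ± 1.47 and -0.43 ± 1.61 in GZ21T lesions over non-lesional skin, but at 5.07 and 5.22 in placebo lesions. They were 5.33 ± 1.45 and 5.65 ± 1.60 lower in GZ21T than in placebo lesions in the authors' deposited table (adjusted p = 0.0229 and 0.0279). Endothelial and pericyte genes had a median of 0.72 in GZ21T lesions and 1.85 in placebo lesions, with 0 of 24 at an unadjusted p under 0.05 in GZ21T lesions. The haemoglobin genes therefore move with the differences between the 2 kinds of lesion, and their part in them was not tested. In the log2 change of GZ21T lesions from non-lesional skin the placebo lesional term cancels. The SEs, p-values and intervals are another matter. They come from a fit assumed to cover all libraries, so placebo lesional libraries can enter them.

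The T and NK cell list and the list of MHC and antigen presentation genes had members on both sides of non-lesional skin. The 23 MHC and antigen presentation genes had a median of 0.08, with 13 above 0 and 10 below. For 25 T and NK cell genes the median was 0.18, beside 0.02 over all genes. At an unadjusted p under 0.05 there was 1 on each side, beside 1.67% of all genes higher and 1.65% lower. These were Cd4, the helper T cell co-receptor, at 1.67 ± 0.79 and Thy1 at -0.49 ± 0.21. The class II genes H2-Ab1 and H2-Aa stood at 1.06 ± 0.46 and 1.02 ± 0.51, and the class I gene H2-T22 at -0.77 ± 0.23 (unadjusted p = 0.00094, adjusted p = 0.789). Cd209a, a lectin of dendritic cells, stood at 3.06 ± 1.23. Of the 20 Langerhans and dendritic cell genes 16 were above 0 in GZ21T lesions, with a median of 0.68, beside 0.65 in placebo lesions. At an unadjusted p under 0.05, 2 of them were higher and 0 lower, beside 1.67% and 1.65% of all genes. The 48 interferon-induced genes had a median of 0.29 in both kinds of lesion over non-lesional skin. In GZ21T lesions 38 of them were above 0, and 0 were higher or lower at an unadjusted p under 0.05. Their median in non-lesional over non-UV skin was 1.32. Neutrophil genes stood at a median of 0.49 in GZ21T lesions and 3.35 in placebo lesions over 9 members, with a median SE of 1.16.

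Sebaceous and fatty acid synthesis genes were above non-lesional skin for 28 of 32 members in GZ21T lesions, with a median of 0.56. At an unadjusted p under 0.05, 6 were higher and 0 lower. Over all genes the median was 0.02, with 1.67% higher and 1.65% lower at that p. The elongase Elovl3 stood at 2.31 ± 0.84 (unadjusted p = 0.006) against 3.02 in placebo lesions. Awat1, a wax synthase of sebum, stood at 1.81 ± 0.75 against 1.79, and the fatty acid hydroxylase Fa2h at 2.32 ± 1.07 against 4.23. NRF2 target genes, which serve antioxidant defence, had a median of 0.21, beside 0.02 over all genes. At an unadjusted p under 0.05, 5 of 37 members were higher and 0 lower, beside 1.67% and 1.65% of all genes. The higher members include the glutathione peroxidase Gpx2 at 2.96 ± 1.08 and the pentose phosphate enzyme G6pdx at 0.28 ± 0.13. The authors' deposited table gives G6pdx as 0.42 ± 0.13 higher in GZ21T than in placebo lesions (adjusted p = 0.041).

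PI3K and mTOR, autophagy, and RAS and MAPK kinase genes lay close to non-lesional skin, most with narrow intervals. Mtor, the kinase at the centre of growth control, stood at 0.06 ± 0.15 (interval -0.23 to 0.36) and Ulk1, the kinase that starts autophagy, at -0.02 ± 0.17 (interval -0.35 to 0.31). Of 36 PI3K and mTOR genes 29, of 34 autophagy genes 26 and of 28 RAS and MAPK kinase genes 26 had an interval within 1 log2 unit of 0. The medians of these lists were 0.00, -0.02 and -0.11, and 0 members of any of them reached an unadjusted p under 0.05. An interval within 1 log2 unit of 0 was found for 10 of 23 AP-1 and immediate early genes, 12 of 37 WNT genes and 5 of 31 HOX genes. Of all genes tested 55.2% had such an interval. The AP-1 and immediate early genes had a median of 0.06 in GZ21T lesions and 0.80 in placebo lesions. Between the lesions, 4 of 18 AP-1 and immediate early genes were lower under GZ21T and 0 higher in the authors' deposited table. Over all genes there, 2.29% were lower and 1.31% higher. The median of 37 WNT pathway genes was -0.11. The ligand genes Wnt7b, at -0.94 ± 0.38, and Wnt3 were the 2 lower members at an unadjusted p under 0.05, and 0 were higher. The 31 genes of body position, of the HOX clusters and related factors, had a median of -0.07. At an unadjusted p under 0.05 the 2 lower members were Hoxa3 at -1.30 ± 0.48 and Hoxa6 at -1.66 ± 0.78, and 0 were higher. The WNT and HOX counts stand beside 1.67% of all genes higher and 1.65% lower at that p.

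**Figure D5:**
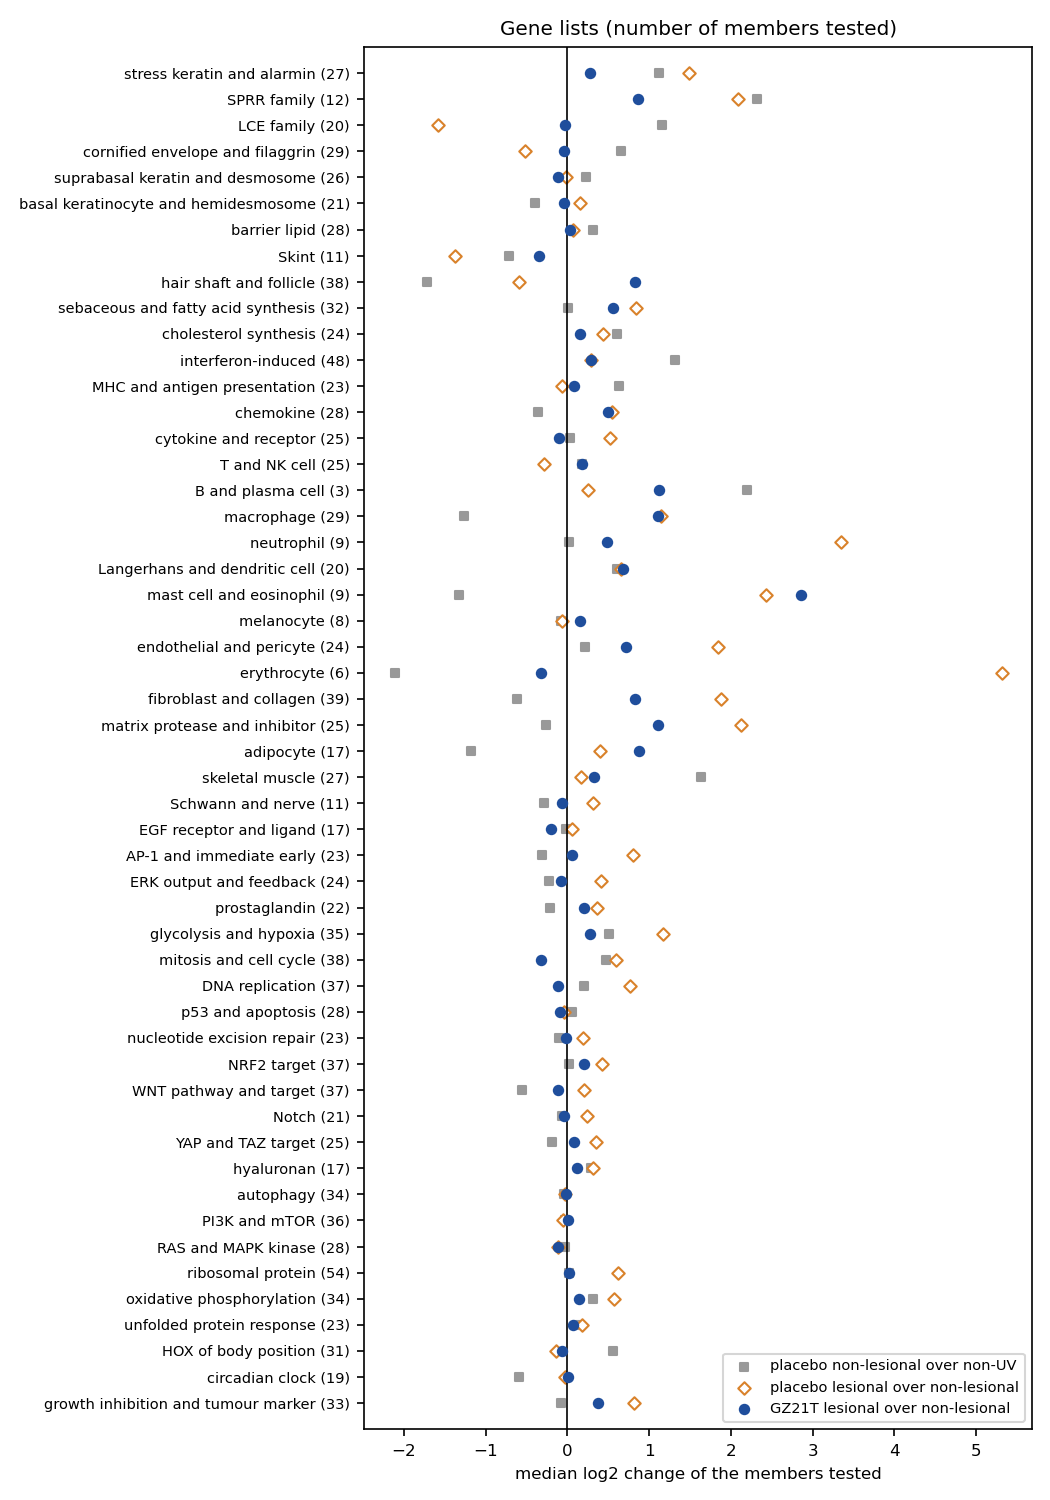
Median log2 change (horizontal) of the members tested of each of the 52 gene lists, for GZ21T lesions over non-lesional skin (filled points), placebo lesions over non-lesional skin (open diamonds) and placebo non-lesional over non-UV skin (squares). Mast cell genes lie farthest right among the filled points, at 2.86, and mast cell, macrophage, adipocyte and hair genes have squares between -1.72 and -1.18.

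A few genes outside the lists had the smallest unadjusted p and were chosen after their values were seen. Casp4, an inflammatory caspase, stood at -1.05 ± 0.27 in GZ21T lesions over non-lesional skin (unadjusted p = 8.57e-05, adjusted p = 0.26), against -0.56 in placebo lesions. Clec4a2, a lectin of myeloid cells, stood at 6.17 ± 1.56 (adjusted p = 0.26) against 4.77, and had a value of -5.79 in non-lesional over non-UV skin in the authors' deposited table. Hp, haptoglobin, stood at 2.40 ± 0.66 (adjusted p = 0.445) against 1.75, and Panx3, a pannexin channel, at 5.75 ± 1.56 (adjusted p = 0.445) against 6.12. Rel, an NF-kB subunit, stood at -0.76 ± 0.21 (adjusted p = 0.445) against -0.91. The nucleotide sugar transporter family member Slc35f5 stood at -0.63 ± 0.16 (adjusted p = 0.26) against -0.47. For these genes the value in GZ21T lesions has the sign of that in placebo lesions, and the 2 values share the non-lesional libraries.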

How the data were processed

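Skin RNA of 15 libraries in 5 groups of 3 was sequenced. The submitters' processing notes name Trim Galore, DESeq2 and the build GRCm38 (mm10). For the aligner, the counter, the annotation and the design formula the sources used here give no name. The 4 tables the authors deposited hold, per the file headers, a log2 fold change, a Wald statistic (a score, the fold change over its SE), a p-value and an adjusted p-value per gene symbol. They hold no counts, so depth is unknown, and the number of unused per-library columns is 0.

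The authors' deposited tables were joined on symbol after 25 to 27 symbols turned into dates were removed, which left 24027. The log2 change was lesional over non-UV minus non-lesional over non-UV minus placebo over GZ21T lesional skin. Its variance was the squared SE of the second, minus that of the first, plus that of the third, which is exact only for 1 fit over all libraries with group as its sole term, and this is an assumption. Among 3383 genes flat in the 3 tables the other tables' SEs had medians of 0.995 and 0.994 times those for non-lesional against non-UV skin. One table's name differs from its header, which was followed: 704 genes without reads in non-lesional and non-UV skin are positive in it and 0 negative. The sign of placebo over GZ21T lesional skin was checked on genes without reads in placebo lesional and non-UV skin, of which 253 are negative and 0 positive. Back skin is taken as the non-UV group.

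The Wald test was two-sided, with normal tails and Benjamini-Hochberg adjustment over 15187 genes that have a p-value in the 3 tables and an adjusted p in lesional over non-UV skin. The calculation was tested on simulated data. Intervals are 95% and unadjusted. Members, lists and fixed genes were chosen with earlier results of these data known. Genes named are up to 4 members with the smallest p of each list, the 27 fixed genes, and, where said, genes chosen after their values were seen. The rule's other parts, on called genes, named none. The LCE genes are described by family, and 1 member of the matrix list is counted but not reported here. Identical rows were shared by 25 of the genes tested, in 11 sets. The alternatives were other filters, another null, centring, Benjamini-Yekutieli adjustment and a larger SE. Python 3.11.15, scipy 1.17.1 and pandas 2.3.3 were used.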

Additional observations from a re-analysis of the deposited data

Results flagged for a closer look

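The 2 kinds of lesion differ in their signed change over placebo non-lesional skin for the 17 genes given here. The same holds for 11 Lce1 genes counted above, of which Lce1h is repeated here. The call is the adjusted p of GZ21T against placebo lesions in the authors' deposited table, which tests that signed difference. Which kind of lesion lies farther from non-lesional skin was not tested. The 2 values over non-lesional skin have opposite signs for Epgn, Cry1, Orc6, Egln3, Slit1, Krt1, G6pdx, Hba-a1 and Hbb-b1. For each gene the difference is GZ21T minus placebo on the log2 scale, and no explanation was weighed. Lower under GZ21T were Egln3 at -2.17, Epgn at -2.37, Slit1 at -3.52, Tslp at -3.95, Dsc2 at -2.08, Ndrg1 at -1.96, Ptgs2 at -3.53, Fosl1 at -2.46, the clock gene Cry1 at -1.42, the replication origin gene Orc6 at -0.90, the serpin Serpinb10 at -1.29, and the haemoglobin genes Hba-a1 at -5.33 and Hbb-b1 at -5.65 in the authors' deposited table. Higher under GZ21T were Lce1h at 1.58, Krt1 at 1.42, Skint3 at 1.06 and G6pdx at 0.42 in the authors' deposited table. Serpinb10, chosen after its values were seen, stood at -1.31 ± 0.40 in GZ21T lesions over non-lesional skin (unadjusted p = 0.0012, adjusted p = 0.803) and at -0.03 in placebo lesions. Cry1 stood at -0.42 ± 0.40 and 1.00, and Orc6 at -0.43 ± 0.29 and 0.46, in the same 2 comparisons.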

How the results depend on the processing

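No paired analysis was possible because the deposited tables hold no values per library, and for the same reason no library could be left out. GZ21T lesions over placebo non-lesional skin gave 0 genes with genes filtered by an adjusted p in each of the 3 tables, with no filter, after centring on the median, with Benjamini-Yekutieli adjustment and with the largest deposited SE. With the null centre and spread taken from the genes, whose z values had a spread of 0.856, it gave 11, 6 higher and 5 lower. These include Casp4, Clec4a2, Hp, Panx3, Rel, Pou2f1 and Slc35f5. The smallest adjusted p over the alternatives lay between 0.00597 and 1. Of the genes named here, these passed under that alternative, and none passed under the others. GZ21T over placebo lesions, 393 genes in the authors' deposited table, gave 222 without a filter, 16 with Benjamini-Yekutieli adjustment and 0 with the null taken from the genes, whose z spread there was 1.64. Centring gave 343, 201 higher and 142 lower. The calls between lesions thus depend on the null, and the cause was not tested. List medians moved by less than the members' median SE for 52 of 52 lists without a filter and after centring. Depth is unknown, and the SE, with quartiles of 0.24 and 0.66, limits which differences can be seen.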
